A study of Saccharomyces cerevisiae with 5 samples.

Results

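Hydrogen peroxide and potassium chloride both slow yeast growth and switch on a common stress programme, and the comparison described here asks where the responses differ. Genes of that programme remain in it where their sizes differ. For each gene, the log2 ratio of peroxide-treated over unstressed wild type cells was taken, and the log2 ratio of KCl-treated over unstressed wild type cells was subtracted from it. A difference of 1 means that the peroxide ratio was 2-fold above the KCl ratio, and a difference of -1 means that it was 2-fold below. Of 6253 genes and unnamed probes, 5969 had a value on both arrays and so had a difference: 3990 named genes and 1979 probes with no gene symbol.

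The study measured polyadenylated RNA of Saccharomyces cerevisiae, budding yeast, on 5 arrays with Cy5 and Cy3 channels, with 1 array for each comparison. Wild type cells of strain ACY044, whose genotype the labels leave out, grew in synthetic complete medium to log phase. On the first wild type array, cells given 0.4 mM H2O2 for 20 min were labelled in Cy5 and unstressed cells of the same strain in Cy3. On the second, cells given 0.4 M KCl for 20 min were in Cy5, against unstressed ACY044 in Cy3. The other 3 arrays compared a strain without SIW14, a gene for a phosphatase that acts on inositol pyrophosphates, with strain BY4741, in peroxide, in KCl and unstressed. No dye was swapped, so a dye effect and a treatment effect cannot be told apart within an array, although a dye effect that is the same on both arrays cancels in the difference.

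In yeast, many stresses turn on a shared set of genes through the transcription factors Msn2 and Msn4 and turn down the genes for ribosome building. Peroxide is also sensed by the Yap1 factor, which turns on thiol-based antioxidant genes, and it damages DNA and iron-sulphur clusters. High salt acts as an osmotic stress, sensed by the HOG kinase pathway, whose kinase Hog1 turns on genes for glycerol, the solute that restores cell volume, while the Ena ATPases pump out sodium and other cations.

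With 1 array per stress there was no replicate error and no test, so all statements below are about sizes on these 2 arrays, and 2-fold is a rule of size. The peroxide array gave a value for 6057 genes and probes and the KCl array for 6151. Both ratios may have been taken against the same unstressed RNA, which the labels do not say, so the values of each stress are given side by side. The difference had a median of 0.02 over all genes, an SD over genes of 0.867, and a central 95% range of -1.80 to 1.62. Spiked control features that carry no yeast sequence had a median difference of -0.49 over the 6 measured on both arrays (range -0.61 to 0.72). SIW14 itself, in the mutant, lay at -1.66 in peroxide, -2.06 in KCl and -2.07 unstressed.

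The peroxide ratio was at least 2-fold above the KCl ratio for 496 genes and probes (8.31% of those tested) and at least 2-fold below it for 559 (9.37%), together 17.7%. On the single arrays, 648 were at least 2-fold higher than unstressed in peroxide (10.7%) and 687 lower (11.3%), against 708 higher in KCl (11.5%) and 717 lower (11.7%). Both stresses had 331 at least 2-fold above unstressed (5.55%) and 358 at least 2-fold below (6.0%). A further 91 were at least 2-fold higher in peroxide while the KCl ratio stayed under 0.5 in size (1.52%), and 124 were lower in the same way (2.08%). For KCl, 105 were higher with a peroxide ratio under 0.5 in size (1.76%) and 108 lower (1.81%). Opposite moves of at least 2-fold each had 5 genes and probes higher in peroxide and lower in KCl (0.0838%) and 15 lower in peroxide and higher in KCl (0.251%).

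**Figure D1:**
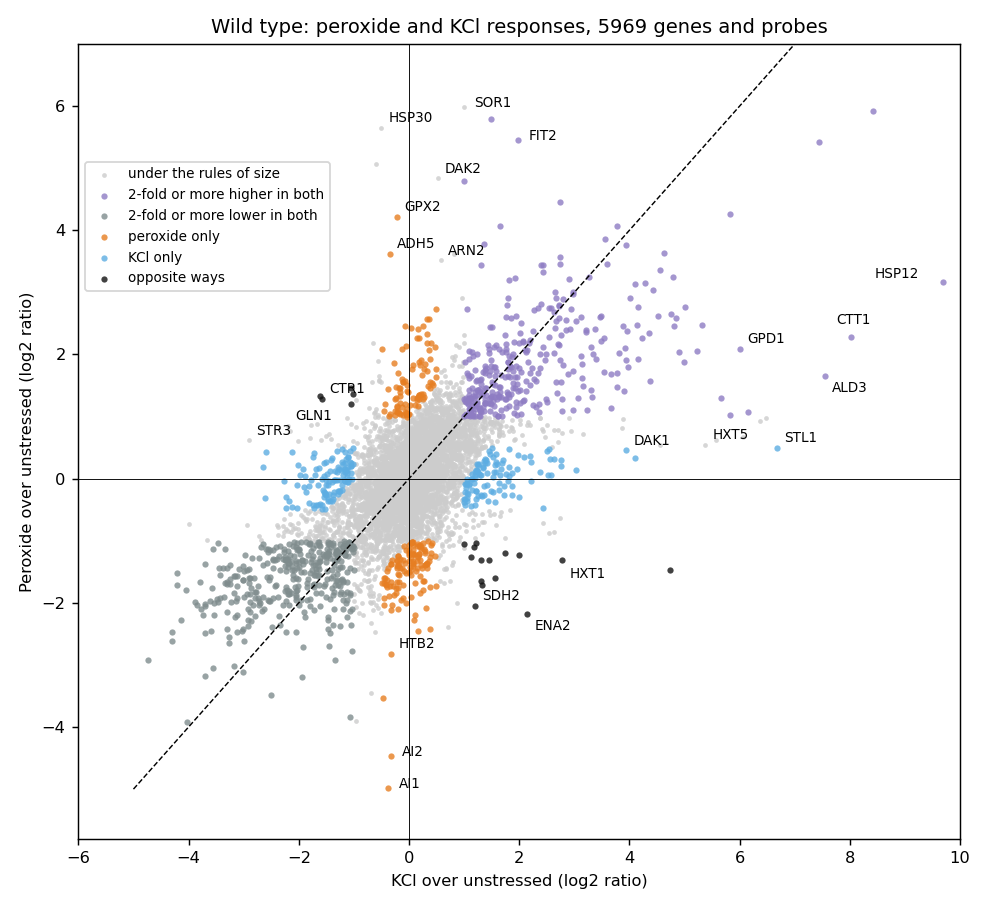
Each point is a gene or unnamed probe with a value on both wild type arrays, with the peroxide log2 ratio over unstressed on the vertical axis and the KCl log2 ratio on the horizontal axis. The dashed line marks equal ratios. HSP30 and GPX2 stand far above it, HSP12 and STL1 far below it, and the 20 points that moved at least 2-fold in opposite ways are black.

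Copper uptake led the short set that was higher in peroxide and lower in KCl. CTR1, the high-affinity copper transporter of the plasma membrane, lay at 1.28 in peroxide and -1.57 in KCl, a difference of 2.86 or 7.25-fold. GGC1, which carries GTP and GDP across the mitochondrial inner membrane, lay at 1.46 in peroxide and -1.06 in KCl. ATG41, needed for full autophagy, had 1.36 in peroxide and -1.02 in KCl, and BET4, a subunit of the enzyme that attaches a lipid to Rab proteins, had 1.20 in peroxide and -1.05 in KCl. The fifth member is an unnamed probe. Just outside, RAD59, a recombination gene, had 0.98 in peroxide and -1.13 in KCl, and GLN1, the glutamine synthetase, had 0.86 in peroxide and -2.19 in KCl.

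Sodium pumps, hexose transporters and the respiratory chain made up most of the set with the reverse pattern, 13 named genes and 2 unnamed probes. ENA2, a plasma membrane pump for sodium and other cations, lay at -2.18 in peroxide and 2.15 in KCl, and its tandem neighbour ENA1 lay at -1.23 in peroxide and 2.0 in KCl. The hexose transporter HXT1 had -1.31 in peroxide and 2.78 in KCl, a gap of 17.1-fold. HXT6 and HXT7, adjacent high-affinity transporter genes, had -1.64 and -1.31 in peroxide, against 1.30 and 1.45 in KCl. ENA1 with ENA2, and HXT6 with HXT7, are near-identical copies whose probes may read each other, so each pair may be 1 signal measured by 2 probes. SET6, a SET domain protein of uncertain role, lay at -1.59 in peroxide and 1.57 in KCl.

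The remaining 7 named genes of that set work in the mitochondrial respiratory chain or beside it. SDH1, SDH2 and SDH4, subunits of succinate dehydrogenase, lay at -1.72, -2.05 and -1.20 in peroxide, against 1.32, 1.20 and 1.75 in KCl. RIP1, the iron-sulphur subunit of the cytochrome bc1 complex, had -1.31 in peroxide and 1.30 in KCl. Its partners in that complex, QCR9 and the cytochrome c1 gene CYT1, had -1.03 and -1.05 in peroxide, against 1.22 and 1.0 in KCl. CCP1, the mitochondrial cytochrome c peroxidase, had -1.25 in peroxide and 1.13 in KCl. SDH3 was just outside, at -0.75 in peroxide and 1.03 in KCl, as was HEM15, the last enzyme of haem synthesis, at -0.96 in peroxide and 1.20 in KCl. CYT1 stands so close to the size rule that it leaves the set when each array is centred on its median, rescaled to its own spread or quantile normalised. Multiplying KCl values by 0.75, the slope of peroxide on KCl over genes that moved together, took CCP1, CYT1, HXT6, QCR9, RIP1, SDH1 and SDH2 out of this set, leaving 7 of 15, and ATG41, BET4 and GGC1 out of the other, leaving 2 of 5. The symbol SDH1 is also an older name of another gene, DIF1.

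**Figure D2:**
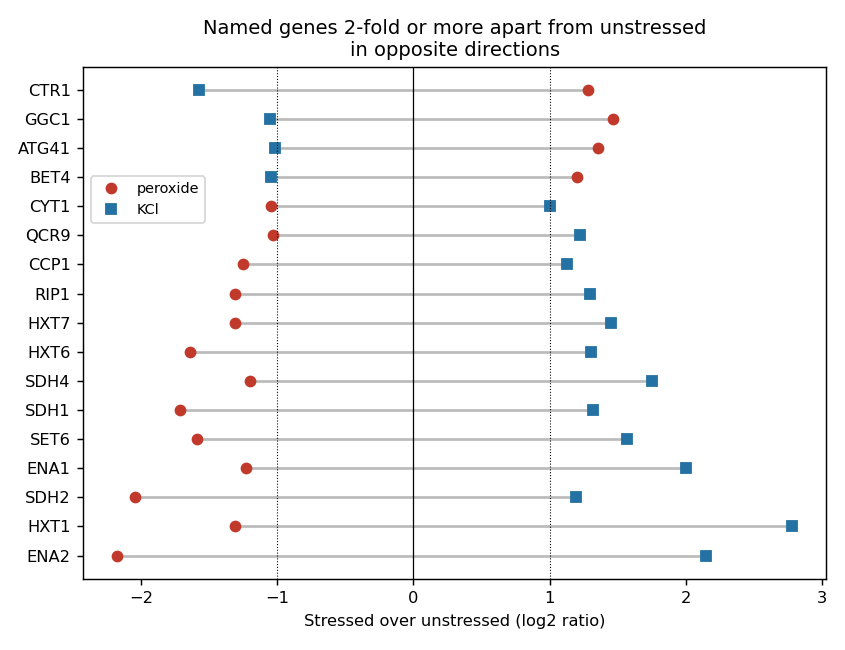
Rows are the 17 named genes that were at least 2-fold from unstressed in opposite directions, ordered by difference, with circles for peroxide and squares for KCl on a log2 scale, 1 array each. Dotted lines mark 2-fold; CTR1 is at the top and ENA2, with the widest gap, at the bottom.

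The respiratory complexes differed in how far they parted. All 4 succinate dehydrogenase subunits were below unstressed in peroxide (-2.05 to -0.75) and above it in KCl (1.03 to 1.75), with a median difference of -2.99. The same held for all 8 measured subunits of the cytochrome bc1 complex, which had a median difference of -2.02, from -2.61 to -1.06. Nuclear-encoded subunits of cytochrome c oxidase had a smaller median difference of -0.77. Of 9, 4 were at least 2-fold apart, against 17.7% of all genes. Among the 9, COX5B, the subunit form used at low oxygen, was higher under both stresses, at 1.34 in peroxide and 1.64 in KCl. ATP synthase subunits were closest together, with a median of -0.30 and 2 of 12 at least 2-fold apart, near the 17.7% of all genes. These 2 were ATP2 (-0.51 in peroxide and 0.96 in KCl) and ATP1 (-0.31 in peroxide and 0.86 in KCl). Of the whole list of 44 nuclear-encoded respiratory genes, 21 had a difference of -1 or less and 0 of 1 or more, against the 9.37% and 8.31% of all genes. These subgroups of the list, and those named below, were drawn after the values had been seen.

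Beyond succinate dehydrogenase, the tricarboxylic acid cycle split by enzyme. ACO1, the iron-sulphur enzyme aconitase, lay at -1.20 in peroxide and 0.39 in KCl, and KGD1, of the 2-oxoglutarate dehydrogenase complex, at -1.08 in peroxide and 0.73 in KCl. The step between these enzymes went the other way, since IDH1 and IDH2, the isocitrate dehydrogenase subunits, had 1.5 and 2.06 in peroxide, against 0.35 and 1.09 in KCl. Citrate synthase CIT1 was higher under both stresses, at 1.21 in peroxide and 2.36 in KCl. The 21 members of the whole list had a median difference of -0.71, with 2 at 1 or more (9.52%, against 8.31% of all genes) and 8 at -1 or less (38.1%, against 9.37%). The list includes succinate dehydrogenase, and its 4 subunits are among these 8.

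Genes for iron-sulphur and haem proteins were collected into a list after their values had been seen, so the counts describe only what was picked. Of 59 members, 23 lay at -1 or less (39.0%, against 9.37% of all genes) and 3 at 1 or more (5.08%, against 8.31%). GLT1, the glutamate synthase, lay at -3.84 in peroxide and -1.06 in KCl. LEU1, the isopropylmalate isomerase of leucine synthesis, lay at -1.90 in peroxide and 0.03 in KCl, and ILV3, a dihydroxyacid dehydratase, at -2.0 in peroxide and -0.86 in KCl. BIO2, the biotin synthase, had -1.98 in peroxide and -0.71 in KCl. CCC1, which moves iron into the vacuole, had -2.27 in peroxide and 0.08 in KCl. HEM1 and HEM3, enzymes of haem synthesis, had -2.11 and -0.95 in peroxide, against -0.66 and 0.92 in KCl. Members did not all lie on this side, for ISU2, a scaffold on which clusters are built, had 1.22 in peroxide and -0.16 in KCl, and the essential ATPase RLI1 was low under both, at -2.71 in peroxide and -1.92 in KCl.

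Iron uptake stood the other way, as far as siderophores are concerned. FIT2 and FIT3, cell wall proteins that hold iron-bearing siderophores, lay at 5.45 and 3.45 in peroxide, against 1.98 and 1.30 in KCl. The siderophore transporters ARN2, ARN1 and ENB1 had 3.52, 2.12 and 2.19 in peroxide, against 0.57, 0.48 and 0.40 in KCl. FRE1, a reductase for iron and copper at the cell surface, had 0.72 in peroxide and -1.44 in KCl. FRE4, another reductase of the list, was the reverse, at -0.78 in peroxide and 0.90 in KCl. The 7 siderophore genes thus had a median difference of 1.79, but FIT1 was the exception, at 0.66 in peroxide and 2.46 in KCl. The reductive uptake pair did not part. FET3, the multicopper oxidase, lay at 1.31 in peroxide and 1.57 in KCl, and its permease partner FTR1 at 0.03 in peroxide and -0.01 in KCl. TIS11, an RNA-binding protein made in iron shortage, and HMX1, a haem oxygenase, were high under both, at 3.57 and 3.46 in peroxide, against 2.75 and 2.74 in KCl. Over the 33 genes of the iron list the median difference was 0.13, with 10 at 1 or more (30.3%, against 8.31% of all genes) and 3 at -1 or less (9.09%, against 9.37%). Those 3 were FIT1, FRE4 and BIO5, the last at -1.45 in peroxide and 0.67 in KCl.

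Copper genes lay on both sides. Of 9, 3 were at 1 or more (33.3%, against 8.31% of all genes) and 2 at -1 or less (22.2%, against 9.37%). CTR3, a second high-affinity transporter, lay at 1.04 in peroxide and -0.35 in KCl, like CTR1, while CTR2, which releases copper from the vacuole, lay at -0.37 in peroxide and 1.01 in KCl. The metallothionein CUP1-2 had 1.56 in peroxide and -0.50 in KCl. CRS5, the other metallothionein, had -0.26 in peroxide and 1.87 in KCl.

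Among named genes, the widest difference towards peroxide was that of HSP30, a plasma membrane heat shock protein, at 5.65 in peroxide and -0.51 in KCl, 71.3-fold apart. Other heat shock proteins did not share it. HSP26, HSP42 and the disaggregase HSP104 were high under both stresses, at 3.76, 4.07 and 2.69 in peroxide, against 3.93, 3.77 and 2.63 in KCl. BTN2, which gathers misfolded protein, had 2.46 in peroxide and 0.26 in KCl. HSP12, a membrane-associated stress protein, was at the far end, at 3.17 in peroxide and 9.69 in KCl.

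Thiol antioxidants parted gene by gene. GPX2, a glutathione peroxidase-type enzyme, lay at 4.22 in peroxide and -0.22 in KCl, whereas its relative GPX1 lay at 1.97 in peroxide and 1.87 in KCl. TRR1, the cytosolic thioredoxin reductase, had 1.57 in peroxide and -0.07 in KCl, and the thioredoxin TRX2 had 3.19 in peroxide and 1.81 in KCl. The peroxiredoxins differed among themselves, with TSA1 at 1.91 in peroxide and 0.83 in KCl and AHP1 high under both, at 3.86 in peroxide and 3.56 in KCl. Of 12 thioredoxin and peroxiredoxin genes, 5 had a difference of 1 or more (41.7%, against 8.31% of all genes). At -1 or less there were 0 (against 9.37%), and the median was 0.56. The glutathione list, in contrast, had a median of 0.02, whose sign changed with the scaling. Of its 15 genes 1 passed 2-fold (6.67% at 1 or more, against 8.31%), the transferase GTT2, at 2.19 in peroxide and 0.32 in KCl. CTT1, the cytosolic catalase, was among the genes most on the KCl side, at 2.28 in peroxide and 8.02 in KCl. SOD2, the mitochondrial superoxide dismutase, was level at 2.07 in peroxide and 2.10 in KCl. YAP1 itself had a value on the peroxide array only, 1.54.

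Reductases and dehydrogenases lay on both sides. OYE3, an old yellow enzyme, lay at 2.27 in peroxide and 0.19 in KCl, and its relative OYE2, on the same side, at -0.23 in peroxide and -1.53 in KCl. DAK2, a dihydroxyacetone kinase, lay at 4.84 in peroxide and 0.52 in KCl, while DAK1, the other such kinase, lay at 0.45 in peroxide and 3.94 in KCl. SOR1, a sorbitol dehydrogenase with a near-identical copy, had 5.98 in peroxide and 0.99 in KCl. ADH5, an alcohol dehydrogenase, had 3.62 in peroxide and -0.35 in KCl. Aldehyde dehydrogenases spread widest, since ALD3 lay at 1.65 in peroxide and 7.55 in KCl, ALD4 at 0.82 in peroxide and 3.87 in KCl, and ALD5 at -0.99 in peroxide and -3.67 in KCl. GRE2 and GRE3, reductases of methylglyoxal and other carbonyls, had 2.04 and 1.92 in peroxide, against 4.91 and 4.16 in KCl.

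DNA damage genes were mostly on the peroxide side, with a median difference of 0.90. Of 22, 10 were at 1 or more (45.5%, against 8.31% of all genes) and 1 at -1 or less (4.55%, against 9.37%). The 4 subunits of ribonucleotide reductase, which makes deoxynucleotides, all lay above unstressed in peroxide: RNR1 at 0.65, RNR2 at 0.96, RNR3 at 1.83 and RNR4 at 1.13. In KCl, RNR1 had -1.80, RNR2 -0.36, RNR3 0.20 and RNR4 -0.72. PLM2, a transcription factor-like protein of the damage response, had 2.08 in peroxide and -0.49 in KCl. HUG1, a small protein that restrains the reductase, had 1.70 in peroxide and -0.20 in KCl, and the checkpoint kinase DUN1 had 1.13 in peroxide and -0.03 in KCl. MAG1, a glycosylase that removes alkylated bases, had 2.91 in peroxide and 0.97 in KCl. PHR1, the photolyase, was high under both at 2.18 in peroxide and 2.0 in KCl. SML1, another inhibitor of the reductase, was the member at -1 or less, at -0.43 in peroxide and 0.61 in KCl.

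Histone genes were on the KCl side of the comparison. All 8 core histone genes were below unstressed in peroxide, from -2.82 to -0.22, and in KCl they ranged from -0.46 to 0.77. HTB2 and HTA2, a divergent pair for histones H2B and H2A, lay at -2.82 and -2.09 in peroxide, against -0.32 and 0.31 in KCl. The variants did not follow, with HTZ1 at -0.18 in peroxide and -0.35 in KCl, and CSE4, the centromere form, at 0.50 in peroxide and -0.40 in KCl. Probes for the paired histone genes may read both copies. Since whole cultures were measured, fewer cells at a cell cycle stage and less RNA per cell cannot be told apart here.

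Cell cycle genes of the start of the cycle showed both signs. The G1 cyclins CLN2, CLN1 and CLN3 had -2.13, -1.79 and -1.13 in peroxide, against -1.08, -0.91 and 0.21 in KCl. Genes for replication and cohesion had the reverse order. SMC3, a cohesin subunit, lay at 0.17 in peroxide and -1.64 in KCl, the replication factor CDC45 at -0.03 in peroxide and -1.17 in KCl, and the thymidylate synthase CDC21 at 0.39 in peroxide and -0.86 in KCl. Later in the cycle, CHS2, which builds the septum, had -2.01 in peroxide and -0.05 in KCl, and the mitotic cyclin CLB2 had -2.22 in peroxide and -1.13 in KCl. The G1/S list as a whole had a median of -0.01, whose sign changed with the scaling, and the G2/M list of 41 had -0.37.

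Sulphate assimilation and methionine synthesis parted with low values in KCl. MET3, MET14 and MET17, enzymes that activate sulphate and fix sulphide, had 0.63, 0.35 and 0.69 in peroxide, against -1.42, -1.73 and -1.51 in KCl. All 10 genes of the reduction pathway were below unstressed in KCl (-1.92 to -0.80), while in peroxide they ranged from -1.38 to 0.83. STR3, a cystathionine lyase, had 0.62 in peroxide and -2.90 in KCl, and HOM3, the aspartate kinase, had 0.87 in peroxide and -1.78 in KCl. The sulphate permeases SUL1 and SUL2 had 1.29 and 1.0 in peroxide, against 0.14 and -0.03 in KCl. MET6, the methionine synthase, was low under both, at -1.47 in peroxide and -2.95 in KCl. Of 36 genes, 16 had a difference of 1 or more (44.4%, against 8.31% of all genes). At -1 or less were 2 (5.56%, against 9.37%). They were MET13, a folate reductase (-0.90 in peroxide and 0.76 in KCl), and the permease MUP3 (-0.27 in peroxide and 1.24 in KCl).

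Amino acid synthesis showed the same side, with a median of 0.82. Of 70 genes, 26 lay at 1 or more (37.1%, against 8.31% of all genes) and 5 at -1 or less (7.14%, against 9.37%). Arginine genes were the highest in peroxide, with ARG1 at 2.19, ARG4 at 1.55, ARG3 at 1.12 and the mitochondrial ornithine carrier ORT1 at 1.54. In KCl, ARG1 had -0.65, ARG4 -0.10, ARG3 -0.59 and ORT1 0.42. Histidine genes differed by a median of 1.66, for example HIS5 at 1.47 in peroxide and -0.19 in KCl, and HIS4 at 0.90 in peroxide and -0.83 in KCl. LYS1 and LYS20, of lysine synthesis, had 1.83 and 1.48 in peroxide, against 0.08 and -0.23 in KCl. The 9 lysine genes as a group were divided in peroxide, 5 above unstressed and 4 below, with a median of 0.065. GCN4, the activator of this set, had -0.28 in peroxide and -0.95 in KCl. The aromatic amino acid breakdown genes ARO9 and ARO10 were exceptions, at 1.32 and 1.29 in peroxide, against 3.32 and 2.77 in KCl. So were the synthesis genes GLT1, LEU1 and ILV3, given above among the iron-sulphur proteins, which make up the rest of the 5 at -1 or less.

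Osmotic stress genes marked the KCl side most strongly. Of 22 genes, 19 had a difference of -1 or less (86.4%, against 9.37% of all genes) and 0 of 1 or more (against 8.31%). The list median was 1.19 in peroxide and 4.88 in KCl. STL1, the glycerol importer, lay at 0.50 in peroxide and 6.68 in KCl. GPD1, which commits carbon to glycerol, had 2.09 in peroxide and 6.02 in KCl, while its relative GPD2 had 0.43 in peroxide and -0.25 in KCl. The hydrophilins SIP18 and GRE1 had 0.93 and 0.63 in peroxide, against 6.37 and 5.57 in KCl. The pathway's own parts moved less, since the 29 signalling genes had a median difference of -0.06. Among these, RCK1, a kinase, had -0.12 in peroxide and 1.87 in KCl, and SSK22, a kinase of the osmosensing branch, had 0.04 in peroxide and -1.88 in KCl.

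Trehalose and hexose transport genes were mostly on the KCl side, while a subgroup of lower glycolysis genes was mostly on the other. TPS1 and TSL1, of trehalose synthesis, had 2.45 and 2.65 in peroxide, against 4.80 and 4.75 in KCl. NTH2, a trehalase, had 0.10 in peroxide and 1.88 in KCl. Of 26 hexose transport and glucose sensing genes, 11 had a difference of -1 or less (42.3%, against 9.37% of all genes). At 1 or more there was 1 (3.85%, against 8.31%). The 11 include the glycerol importer STL1, which is also counted among the osmotic stress genes. HXT5 lay at 0.55 in peroxide and 5.37 in KCl, and HXT3 was low under both at -1.85 in peroxide and -1.60 in KCl. HXT2 and HXT4 had -2.35 and -2.48 in peroxide, against -1.37 and -1.44 in KCl. ADR1 and CAT8, activators of genes for non-fermentable carbon, had 0.11 and 0.10 in peroxide, against 2.37 and 1.58 in KCl. Against that stood the fatty acid oxidation genes POX1 (1.90 in peroxide and 0.22 in KCl) and SPS19 (2.33 in peroxide and 0.32 in KCl). They were exceptions in their list of 39 gluconeogenesis, glyoxylate cycle and fatty acid oxidation genes, which had a median difference of -0.57. That list held 2 at 1 or more (5.13%, against 8.31% of all genes) and 8 at -1 or less (20.5%, against 9.37%). Lower glycolysis was above unstressed under both stresses, with a median difference of 0.70 and 7 of 8 genes higher in peroxide. Of the 8, 3 had a difference of 1 or more. TDH1 lay at 4.46 in peroxide and 2.74 in KCl, and TDH2 at 2.15 in peroxide and 0.85 in KCl. The whole list of 29 glycolysis and fermentation genes had a median of 0.15, with 17 above 0 and 12 below. It held 6 at 1 or more (20.7%, against 8.31% of all genes) and 3 at -1 or less (10.3%, against 9.37%).

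Genes of the mitochondrial genome were lower in peroxide than in KCl. The reading frames within the introns of COX1, named AI1, AI2 and AI4, lay at -4.99, -4.47 and -3.53 in peroxide, against -0.38, -0.32 and -0.47 in KCl. COX1 itself had -2.47 in peroxide and -0.62 in KCl, COX3 had -2.04 in peroxide and -0.45 in KCl, and COB had -1.73 in peroxide and -0.29 in KCl. OLI1, an ATP synthase subunit, was above unstressed under both stresses, at 0.43 in peroxide and 1.11 in KCl. All 12 measured members had a difference below 0, and 9 of them (75%) had -1 or less, against 9.37% of all genes. These intron frames lie in a shared precursor and are not separate measurements, and the part that selecting polyadenylated RNA plays in their values was not tested. The 60 nuclear genes for mitochondrial ribosomal proteins differed the other way by a median of 0.55, and 57 of them lay above 0. Few were 2-fold apart, with 5 at 1 or more (8.33%, near the 8.31% of all genes) and 0 at -1 or less (against 9.37%). An AAP1 probe had -3.91 in peroxide and -0.96 in KCl, but its symbol is both an aminopeptidase and an older name of the mitochondrial gene ATP8, so its identity is uncertain.

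**Figure D3:**
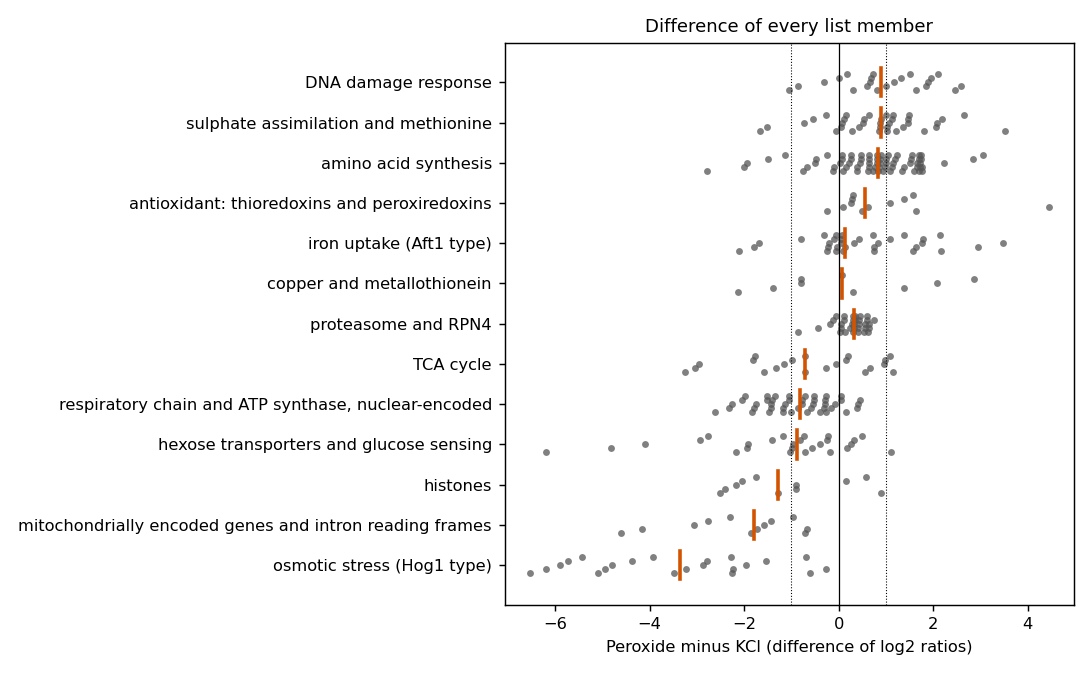
Every member of 13 gene lists is a grey point at its difference, peroxide minus KCl, in log2 units, with an orange bar at the list median and dotted lines at 2-fold. The 22 osmotic stress genes all lie below 0, the 34 proteasome genes all lie between the dotted lines, and iron and copper genes spread to both sides.

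Shared responses also differed in size, and they made up 183 of the 1055 genes and probes at least 2-fold apart. Of the 331 genes and probes higher under both stresses, 14 were at least 2-fold higher again in peroxide and 70 in KCl. Among the 58 general stress genes, the median was 2.0 in peroxide and 3.18 in KCl. A difference of -1 or less was found in 32 of them (55.2%, against 9.37% of all genes). Of the list, 2 were at least 2-fold on the peroxide side (3.45%, against 8.31%). These were the vacuolar aminopeptidase APE1 (3.43 in peroxide and 2.39 in KCl) and the nucleotidase PHM8 (1.98 in peroxide and 0.83 in KCl). Ribosome building was reduced farther in KCl. The 60 genes of the small subunit list had a median of -1.66 in peroxide and -2.61 in KCl, and the 59 of the large subunit list -1.66 in peroxide and -2.70 in KCl. When KCl values were multiplied by 0.75, the slope of peroxide on KCl values over the 689 shared genes, the medians of these 3 lists moved under 0.5 in size, to -0.32 for general stress and 0.33 for both ribosome lists. RPA190, the largest subunit of RNA polymerase I, had -1.56 in peroxide and -3.44 in KCl. Of 30 phosphate genes, 8 lay at 1 or more (26.7%, against 8.31% of all genes) and 1 at -1 or less (3.33%, against 9.37%). At least 2-fold lower under both were 7 of the 30, against 6.0% of all genes. The transporter PHO84 had -1.13 in peroxide and -3.56 in KCl. PHO89, a sodium-coupled phosphate transporter, was the reverse, at -2.77 in peroxide and -1.04 in KCl.

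Of the remaining lists, some stayed close together and others parted. The proteasome had a median of 1.02 in peroxide and 0.70 in KCl. Of its 34 genes, 0 were 2-fold apart, against 17.7% of all genes. Of 31 Hsp70, Hsp90 and Hsp40 chaperones, 2 were, both at 1 or more (6.45%, against 8.31% of all genes). They were YDJ1 (0.39 in peroxide and -0.66 in KCl) and CNS1 (-0.10 in peroxide and -2.03 in KCl). Endoplasmic reticulum folding genes had a median difference of -0.08, though HAC1, the activator of the unfolded protein response, lay at -0.61 in peroxide and 1.65 in KCl. Sphingolipid genes had a median difference of -0.58 and 7 of 28 at -1 or less (25%, against 9.37% of all genes), with the fatty acid hydroxylase SCS7 at -1.75 in peroxide and 0.39 in KCl. Cytosolic ribosomal proteins differed by medians of 0.25 and 0.29 for the small and large subunits. Multidrug exporters had a median difference of 0.50 although their list medians were close, at -0.15 in peroxide and -0.07 in KCl, and they held 4 of 23 genes at 1 or more (17.4%, against 8.31%) and 4 at -1 or less (17.4%, against 9.37%). Of the 55 lists, 8 had a median difference of 0.5 or more, 13 of -0.5 or less, and 34 lay between.

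**Figure D4:**
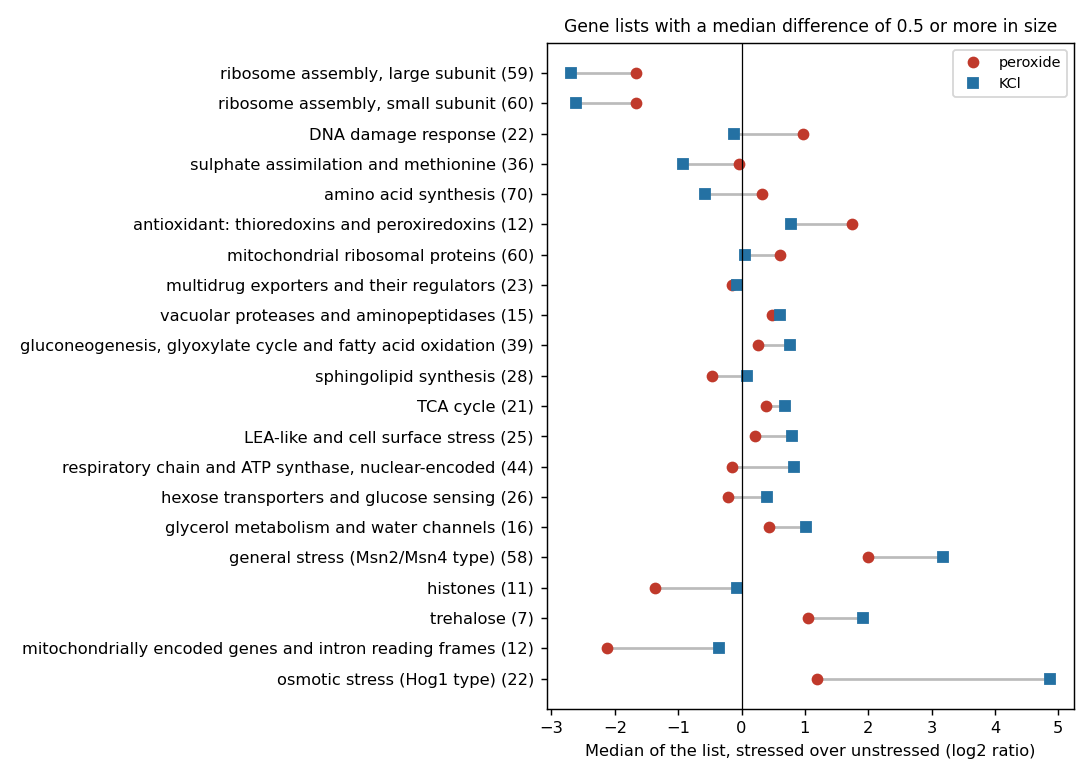
For the 21 lists with a median difference of at least 0.5 in size, circles give the list's median log2 ratio in peroxide and squares that in KCl, with the number of genes in brackets. Osmotic stress genes show the widest gap, at 1.19 in peroxide and 4.88 in KCl, while the ribosome lists are low under both stresses.

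Genes that moved under 1 stress alone could be followed on the arrays of the mutant, which used other cells. Of the genes higher in peroxide only, 26 of 81 measured were at least 2-fold higher in the mutant than in BY4741 in peroxide (32.1%, against 12.8% of all genes), and 11 of 85 were in KCl (12.9%, against 11.4%). Of the genes lower in peroxide only, 36 of 115 were lower in the mutant in peroxide (31.3%, against 8.31%), and 12 of 116 in KCl (10.3%, against 11.0%). For genes higher in KCl only, 27 of 95 were higher in the mutant in peroxide (28.4%) and 43 of 99 in KCl (43.4%). For those lower in KCl only, 11 of 94 were lower in the mutant in peroxide (11.7%) and 29 of 95 in KCl (30.5%). Genes higher in both stresses were higher in the mutant more often, 241 of 316 in peroxide (76.3%) and 194 of 311 in KCl (62.4%). Of those lower in both, 152 of 356 were lower in the mutant in peroxide (42.7%) and 273 of 354 in KCl (77.1%). A raised share is thus not particular to the one-stress sets. Each of these mutant comparisons is also 1 array, and no difference between them was tested. OYE3 was 5.90 above BY4741 in the mutant in peroxide and 1.26 in KCl, and ADH5 2.35 in peroxide and 0.22 in KCl, both log2 ratios.

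In the set that was lower in peroxide and higher in KCl, the mutant's medians were close under both stresses, though some members differed. The 13 genes and probes measured had a median of 1.20 in the mutant in peroxide and 1.34 in KCl, and the 12 measured unstressed had 1.04. HXT7 lay at 3.83 in the mutant in peroxide, 2.02 in KCl and 3.82 unstressed. CCP1 lay at 3.91 in the mutant in peroxide, 1.03 in KCl and 0.47 unstressed, and HXT6 at 2.90 in peroxide, 1.63 in KCl and 3.41 unstressed. RIP1 had 1.63 in peroxide, 1.59 in KCl and 1.52 unstressed. The sodium pumps ENA2 and ENA1 and the hexose transporter HXT1 were opposite cases, below BY4741 on each mutant array. ENA2 lay at -1.37 in peroxide, -1.08 in KCl and -0.52 unstressed, and ENA1 at -1.14 in peroxide, -0.99 in KCl and -0.31 unstressed. HXT1 had -0.65 in peroxide, -0.32 in KCl and -0.40 unstressed.

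**Figure D5:**
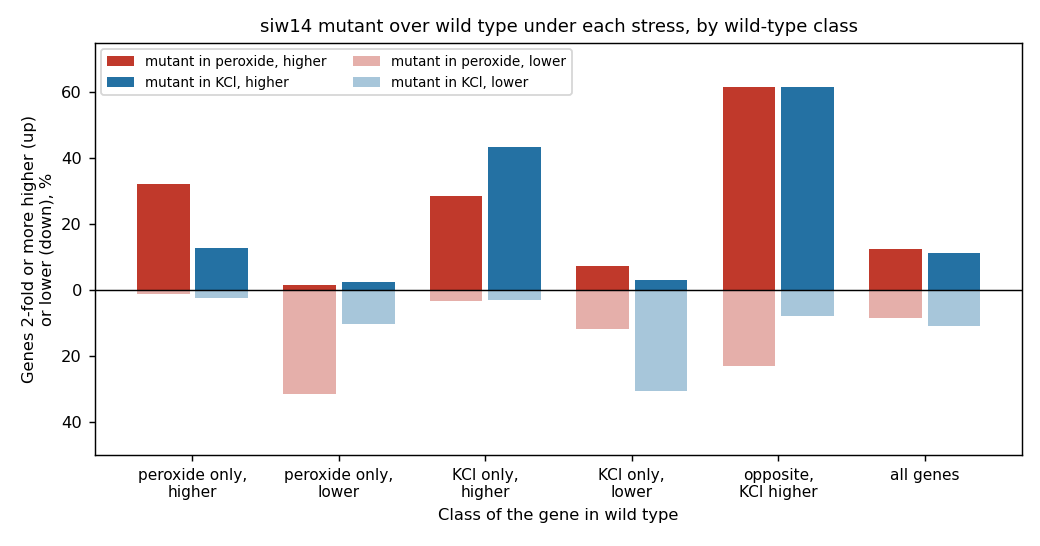
Bars above 0 give the percentage of each wild type class that was at least 2-fold higher in the siw14 mutant than in BY4741, and pale bars below 0 the percentage at least 2-fold lower, with peroxide left and KCl right, 1 array each. Genes higher in peroxide only reach 32.1% on the peroxide array, and genes higher in KCl only reach 43.4% on the KCl array. Genes that moved the same way under both stresses are not drawn; those higher in both reach 76.3% and 62.4%.

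Adjacent named genes shared one of these sets in 8 places. The opposite set held ENA2 beside ENA1 and HXT7 beside HXT6, and the set lower in peroxide only held HTA2 beside HTB2 and, among the COX1 intron frames, AI5_ALPHA beside AI4 and AI2 beside AI1. The 3 other pairs were not of related genes: PRM5 beside HIS5 (higher in peroxide only), SKN1 beside THI4 (higher in KCl only) and VTC2 beside MSH4 (lower in KCl only). Coding lengths also differed by set, from RefSeq gene models. Genes higher in peroxide only had a median of 1056 bases and those lower in peroxide only 1815, against 1341 over all named genes. Genes higher in KCl only had 1641 and those lower in KCl only 1149. The shared sets differed too, with 1134 for genes higher in both stresses and 1629 for those lower in both. Whether length plays a part in these ratios was not tested.

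Some genes were measured under 1 stress only and have no difference. On the peroxide array alone, NTH1, a trehalase, had 2.31, the enolase ENO1 2.30, the trehalose phosphatase TPS2 2.11 and the superoxide dismutase SOD1 2.04. On the KCl array alone, FTH1, a vacuolar iron permease, had -3.24 and MEK1, a meiotic kinase, 1.20.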

How the data were processed

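The deposited values were used as given: 1 log ratio per probe and array, treated over untreated, per the labels' dyes. The authors' deposited table is read here as log2, since its range is too wide for base 10 of a scanner's range, but no source used here names the base, the background correction or the normalization. Probes were averaged by platform symbol (3 symbols had several probes); 4075 of 6256 probes had 1 symbol, 0 several and 2181 none, and the rest were kept by probe. Symbols were updated by the RefSeq table of the R64 assembly (3939 current, 125 updated, 8 kept), and 53 control features were left out. Differences were computed with pandas 2.3.3 and numpy 2.4.6 on Python 3.11.15, and the script was tested on simulated data. With 1 array per comparison no test was possible and the number of arrays limits the precision; a call is a size of 1 in log2. Named genes were the 12 highest and 12 lowest differences, up to 12 per direction of the opposite set, 8 per one-stress set, up to 5 highest and 5 lowest per list with the opposite members, and paralogue partners; other genes named were chosen after their values were seen. The genes and lists were chosen with earlier results of these data known. Lists overlap, with 127 genes in more than 1 list, so their counts are not separate evidence.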

Additional observations from a re-analysis of the deposited data

How the results depend on the processing

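No paired analysis was possible because each comparison has 1 array, and no replicate could be left out; no search of promoter motifs was run. Centring each array on its median, scaling it to its own spread and quantile normalisation left each count of genes and of lists within 1.5 times of that reported. Of the single genes followed that were at least 2-fold apart, SOL4 (a difference of -1.57) changed sign, to 0.11 under quantile normalisation. Followed genes with smaller differences also changed sign, 6 under quantile normalisation and 3 with each array scaled to its own spread. When KCl values were multiplied by the shared slope, 19 did. The medians of the glutathione, G1/S, ergosterol and pheromone lists, all under 0.1 in size, changed sign under at least 1 scaling. The cause was not tested.

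Multiplying KCl values by the shared slope left 2 and 7 genes and probes in the opposite sets, and 45 higher and 37 lower in KCl only. Smaller KCl values pass the size rule less often. Shared ones at least 2-fold apart fell to 79, but the slope was fitted to the shared genes themselves, so it narrows their gap by construction. That scaling took ATG41, BET4 and GGC1 out of the first opposite set and CCP1, CYT1, HXT6, QCR9, RIP1, SDH1 and SDH2 out of the second. It also moved the medians of the general stress (-0.32), ribosome assembly (0.33), TCA cycle (-0.42), gluconeogenesis (-0.30), cell surface (-0.39), sphingolipid (-0.45), vacuolar (-0.36) and multidrug (0.33) lists under 0.5 in size; general stress was at -0.39 under quantile normalisation. If the deposited values are natural logs, every size is larger: 961 genes and probes are at least 2-fold on the peroxide side and 991 on the KCl side, the opposite sets hold 19 and 50, peroxide only 167 higher and 236 lower, KCl only 176 and 195, both stresses 631 and 593, of which 423 differ 2-fold, and 13 and 20 lists pass 0.5.

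Rules of size set the other counts. With named genes only there are 323 and 328 on the peroxide and KCl sides, 59 higher and 80 lower in peroxide only, 50 and 59 in KCl only, and 192 higher in both. At 1.5-fold these are 1189 and 1159, opposite sets 43 and 67, peroxide only 304 and 374, KCl only 283 and 316, both 760 and 699, of which 550 differ. At 3-fold they are 161 and 215, opposite sets 0 and 1, peroxide only 27 and 26, KCl only 32 and 23, both 148 and 132, of which 47 differ. With the other stress under 0.25 in size, peroxide only holds 58 and 75 and KCl only 61 and 66.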

Other observations

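Mating genes gave values on both sides. PRM10, a pheromone-regulated membrane protein, lay at -0.63 in peroxide and 2.74 in KCl, while PRM4 and PRM5, induced by pheromone, had 1.60 and 1.67 in peroxide, against -0.12 and 0.24 in KCl. Genes of meiosis on the peroxide side were DMC1, the meiotic recombinase (1.18 in peroxide and 0.03 in KCl), ZIP1, of the synaptonemal complex (1.36 in peroxide and 0.26 in KCl), and NDT80, the activator of middle meiosis (1.07 in peroxide and -0.07 in KCl). REC114, needed for meiotic breaks, was on the other side at -0.27 in peroxide and 1.36 in KCl.

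Nitrogen uptake genes were also divided. GAP1, the general amino acid permease, lay at 0.25 in peroxide and -1.54 in KCl, and the ammonium permease MEP2 at -0.02 in peroxide and -1.30 in KCl. MEP3, another ammonium permease, had -1.40 in peroxide and -0.20 in KCl, and the permease GNP1 had -1.39 in peroxide and 0.30 in KCl. PMA1, the main proton pump of the plasma membrane, had 0.10 in peroxide and -1.15 in KCl, while its minor relative PMA2 had -1.21 in peroxide and 0.19 in KCl.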
